A study of Ovis aries with 6 samples.

Results

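The collagen genes of the sheep ovary were followed across its cell types and between ewes with large and small litters. Every gene whose name in the deposited gene list consists of COL, a number, A and a number was taken, which gave 43 of 30574 genes, and no measured value entered that choice. The ovaries came from 6 adult ewes of the Hu breed, a prolific Chinese sheep, and were collected in oestrus. The labels give 3 ewes as HLS, the high-reproduction group with litters of 3 or more, and 3 as LLS, the low-reproduction group with litters below 2, and no treatment is named for either. 1 ovary of each ewe gave 1 droplet-based 3′ single-cell RNA library. Nothing else in the labels tells the groups apart, and each ewe is 1 replicate. The p-values thus set the difference between the groups against the spread among the 3 ewes within each.

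Collagens are made of 3 polypeptide chains wound into a triple helix, and each chain has its own gene. Fibrillar chains such as those of types I, III and V build the fibres of connective tissue, whereas type IV chains form the sheet-like network of basement membranes that surrounds follicles, blood vessels and smooth muscle. Other types decorate fibres, form beaded filaments around cells, or carry a domain that crosses the cell membrane. In the ovary the stroma and the theca hold the fibres, and the basal lamina between granulosa and theca is rich in type IV collagen.

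The libraries held 43329216 to 75549912 UMI (unique molecular identifiers, each standing for 1 captured transcript). Of 52290 barcodes, 36457 cells were retained, with a median of 5202 to 9802 UMI per cell in the 6 ewes. Of the 36311 distinct barcode sequences among them, 146 (0.402%) occurred in more than 1 library. Clusters were rebuilt without the collagen genes and named from marker genes, so each name carries "-like". The 5 types used here held 8092 stromal-like, 1628 theca-like, 2562 perivascular-like, 15505 endothelial-like and 2277 granulosa-like cells. They leave out 1828 cells named as cycling and 935 left unnamed. Among the cycling cells were 287 led by FST and INHA, both granulosa markers, so the granulosa-like values do not cover these. For 976 other cycling cells the next marker score after cycling was endothelial, and for 565 it was stromal. The endothelial-like and stromal-like values do not cover those either. The markers fixed for a type were highest in that type, over these 5 types and the immune-like cells, for 6 of 8 stromal, 5 of 6 theca, 10 of 10 perivascular, 10 of 10 endothelial and 10 of 10 granulosa genes. OGN and NR2F2 were not highest in stromal-like cells and STAR was not highest in theca-like cells. The clusters were named from these same markers, so the counts are no independent check of the names.

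Levels are given as UMI per 10000 UMI of the counts summed over the cells of a type in an ewe, with the mean ± SD over 6 ewes. Because the 3′ assay counts 1 tag per captured molecule, these values were not divided by gene length, and levels of different genes are compared on this UMI scale. Cell types were defined on the same cells, so differences between types are described without a test. Values for single ewes follow the order HLS 1, HLS 2, HLS 3, then LLS 1, LLS 2, LLS 3.

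Summed over the 43 genes, the collagen level was 252 ± 82.4 in stromal-like, 128 ± 34.5 in perivascular-like, 66.8 ± 18.2 in theca-like, 50.4 ± 31.1 in endothelial-like and 11.1 ± 2.81 in granulosa-like cells (n = 6 ewes each). Theca-like and endothelial-like cells, neighbours in this order, differed by less than the SD of either. The immune-like cells, which should make little collagen, held 5.87 ± 1.48. In stromal-like cells the ewes had 121, 240, 264, 375, 280 and 231. In theca-like cells they had 37.8, 54.8, 71.3, 76.8, 89.9 and 70.3. HLS 1 was the lowest of the 6 ewes in all 5 types, and LLS 1 was the highest in 3 of 5, the stromal-like, perivascular-like and endothelial-like cells. HLS 1 was also the lowest in immune-like cells (4.35). Over all its cells HLS 1 had a median of 7286 UMI and 4.26% mitochondrial UMI, within the 5202 to 9802 UMI and 4% to 6.04% of the other ewes. By type, however, HLS 1 had the deepest theca-like cells (20015 UMI against 13318 to 17314), granulosa-like cells (13509 against 5936 to 9989) and perivascular-like cells (4882 against 2750 to 4190). Its stromal-like cells (4934 against 4611 to 6279) and endothelial-like cells (9013 against 5159 to 11327) lay within the range of the other ewes. Its mitochondrial share was the lowest in theca-like (3.79%) and granulosa-like cells (3.72%). The part of depth in its low collagen level was not tested.

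**Figure D1:**
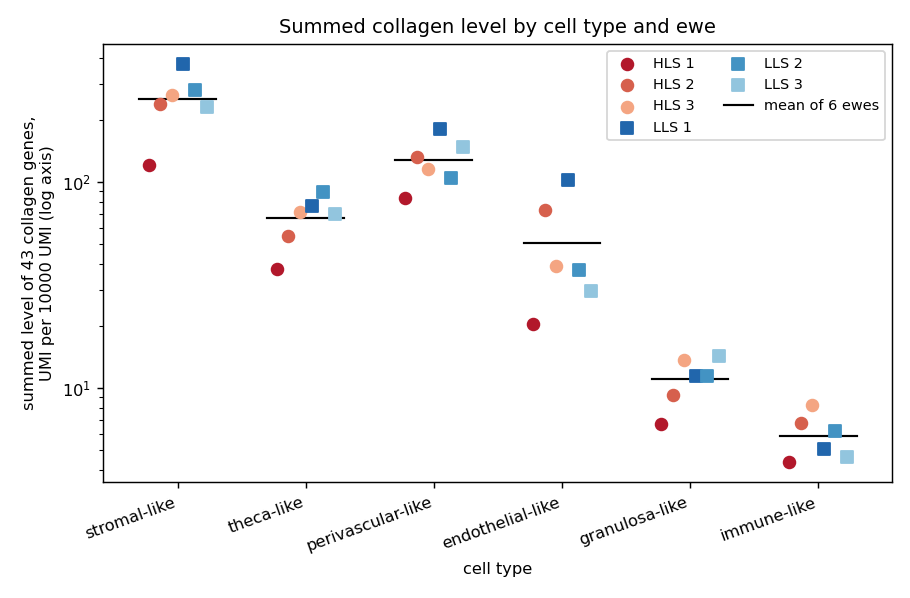
Summed level of the 43 collagen genes in UMI per 10000 UMI (log axis) in each ewe for 5 cell types and the immune-like cells; circles are HLS ewes, squares LLS ewes and lines the means of 6 ewes. The stromal-like points lie between 121 and 375, and HLS 1 is the lowest point of every type.

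Of the 43 genes, 18 reached 1 UMI per 10000 in at least 1 of the 5 types, 10 reached 0.1 but not 1, and 15 stayed below 0.1. No member was without a UMI. Among the 28 genes at 0.1 or more, 16 were highest in stromal-like, 7 in perivascular-like, 3 in endothelial-like, 1 in theca-like and 1 in granulosa-like cells. For 20 of the 28 the same type was highest in each of the 6 ewes. By family, the 11 fibrillar genes summed to 193 in stromal-like cells, 39.6 in the perivascular-like and 31.8 in the theca-like ones, and to 2.44 and 3.16 in endothelial-like and granulosa-like cells. The 6 type IV genes had another order, with 62.4 in perivascular-like, 41.3 in endothelial-like, 20.1 in theca-like, 14.5 in stromal-like and 5.33 in granulosa-like cells.

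**Figure D2:**
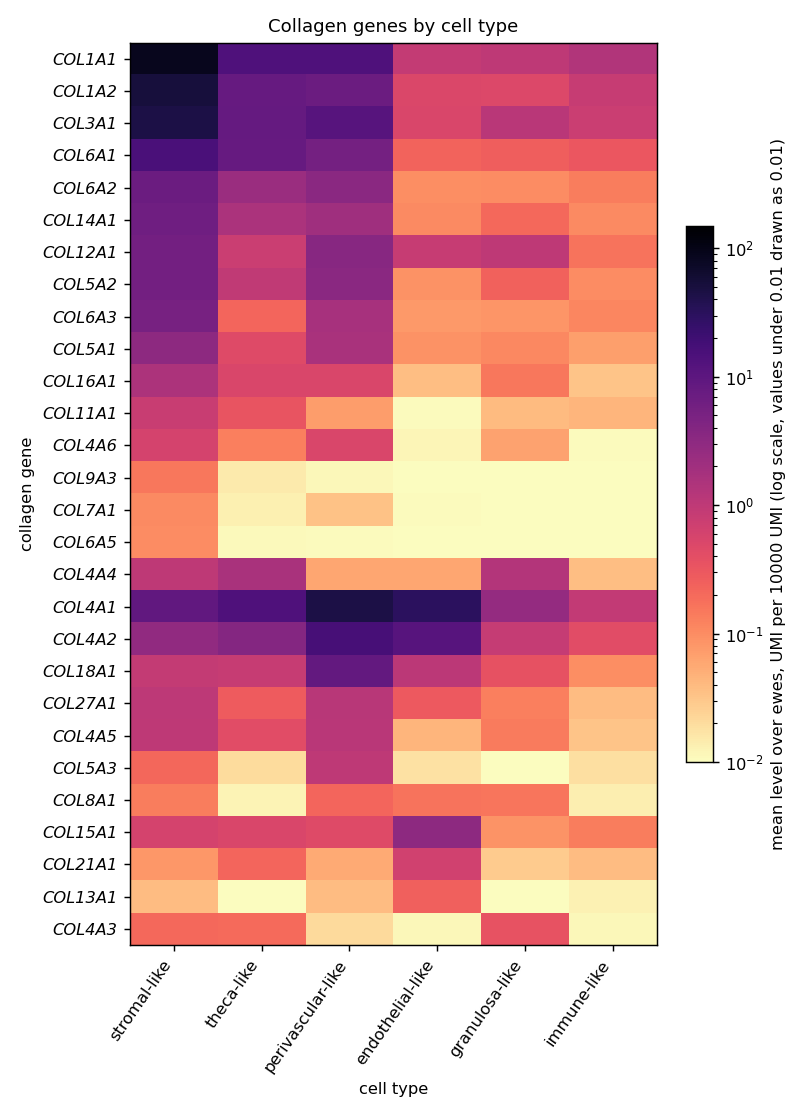
Mean level over 6 ewes (colour, log scale, UMI per 10000 UMI) of the 28 collagen genes that reached 0.1 in a type, grouped by the type in which each was highest. Fibrillar chains fill the stromal-like column (COL1A1 87.8), and COL4A1 is dark in the perivascular-like (43.8) and endothelial-like (29.9) columns.

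Fibrillar chains made up most of the stromal collagen. COL1A1, COL1A2 and COL3A1, the chains of types I and III, held 34.7%, 19.8% and 17.5% of the collagen UMI in stromal-like cells, 72% together. COL1A1 in stromal-like cells had 41.4, 82.8, 93.5, 136, 92.8 and 79.7 (87.8 ± 30.5). COL1A2 had 22.1, 49.4, 50, 76.2, 61.3 and 43.7 (50.5 ± 18.1). The third chain, COL3A1, had 21.3, 42.1, 43.4, 68.3, 52.3 and 38 (44.2 ± 15.6). HLS 1 was lowest and LLS 1 highest for each of these genes, and the remaining ewes of both groups lay between them.

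In theca-like cells the same chains were lower. COL1A1 had 7.63, 10.6, 18, 15.6, 13.1 and 18.3 there (13.9 ± 4.24), and the theca-like mean of COL1A2 was 7.82 ± 1.99 and that of COL3A1 8.05 ± 1.89. Perivascular-like cells held 13.8 ± 5.85 of COL1A1, 7.1 ± 2.58 of COL1A2 and 11.6 ± 2.08 of COL3A1. The stromal mean was 6.33 times that of the next type for COL1A1, 6.46 times for COL1A2 and 3.82 times for COL3A1, in 6 of 6 ewes each.

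In endothelial-like and granulosa-like cells these chains were near the level of immune-like cells. COL1A1 was at 0.893 ± 0.47 in endothelial-like and 0.993 ± 0.324 in granulosa-like cells, against 1.35 ± 0.605 in immune-like cells. The share of cells with at least 1 COL1A1 UMI was 45.6% in endothelial-like, 46.7% in granulosa-like and 41.4% in immune-like cells, at median depths of 8328, 9463 and 3114 UMI. After each cell was thinned to 2000 UMI, the shares were 16.3%, 16.6% and 26.5%, against 90.9% in stromal-like cells (93% before thinning). This thinning left out 1110 endothelial-like, 102 granulosa-like, 539 immune-like and 697 stromal-like cells that were shallower. At equal depth the endothelial-like and granulosa-like shares thus lay below that of the immune-like cells, and they are not read as expression of COL1A1. No profile of empty droplets was estimated. The COL1A1 to COL1A2 ratio was 1.76 ± 0.139 in stromal-like, 1.8 ± 0.171 in endothelial-like, 1.67 ± 0.316 in immune-like and 2.16 ± 0.645 in granulosa-like cells. The COL3A1 to COL1A2 ratio was 2.33 ± 1.16 in granulosa-like cells, with a range of 0.919 to 4.33 over the ewes. It was 1.74 ± 0.402 in perivascular-like, 0.952 ± 0.0874 in immune-like and 0.883 ± 0.0423 in stromal-like cells. The stromal-like range of 0.851 to 0.963 overlapped the granulosa-like one. Of the granulosa-like clusters described below, the larger had a ratio of 1.34 ± 0.633 and the smaller 3.32 ± 2.09.

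The type V chains join type I fibrils and set their diameter. COL5A1 and COL5A2 were also highest in stromal-like cells, at lower levels than the type I chains. Their stromal mean was only 1.9 and 1.75 times that of perivascular-like cells, the next type, in 6 of 6 ewes each. Theca-like cells held 0.454 of COL5A1 and 0.962 of COL5A2. COL5A2 in stromal-like cells had 2.61, 6.08, 6.74, 7.89, 6.35 and 5.21 (5.81 ± 1.8), and perivascular-like cells held 3.32 ± 1. COL5A1 had 1.38, 3.07, 2.93, 5.07, 3.27 and 2.78 (3.08 ± 1.18), with 1.62 ± 0.428 in perivascular-like cells. The ratio of COL5A1 to COL5A2 was 0.527 in stromal-like cells, 0.496 in the perivascular-like and 0.489 in the theca-like ones. COL5A3, the third type V chain, was instead highest in perivascular-like cells at 0.979, which was 4.63 times the stromal mean and higher in 6 of 6 ewes.

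COL27A1 was the other fibrillar chain above 1. In perivascular-like cells it had 0.909, 1.21, 1.4, 1.14, 1.3 and 1.07 (1.17 ± 0.173), and in stromal-like cells 1.03 ± 0.303, a difference below the SD of the latter. COL11A1 averaged 0.783 in stromal-like and 0.333 in theca-like cells. COL24A1 peaked at 0.0544 in stromal-like cells, while COL2A1, the main chain of cartilage, and COL11A2 stayed at 0.00206 and 0.00686 in their highest type.

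The fibril-associated chains COL12A1, COL14A1 and COL16A1, which sit on the surface of fibrils, were also mainly stromal. COL14A1 in stromal-like cells had 3.31, 6.93, 5.6, 7.81, 6.72 and 6.6 (6.16 ± 1.57), against 2.06 ± 0.813 in perivascular-like cells. COL16A1 had 0.852, 1.57, 2.11, 1.72, 1.46 and 1.44 (1.53 ± 0.412), above every other type of the 5 in 6 of 6 ewes. COL12A1 varied more between ewes. Its stromal level was 1.76, 5.35, 6.88, 8.81, 3.73 and 8.3 (5.81 ± 2.73), and it was highest in stromal-like cells in 4 of 6 ewes. COL12A1 was the only chain of this family to reach 1 in granulosa-like cells (1.01 ± 0.664), with 0.166 in immune-like cells.

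COL21A1 departed from the family and was highest in endothelial-like cells, at 0.655 against 0.224 in theca-like and 0.0807 in stromal-like cells. This held in 6 of 6 ewes. COL9A3 was at 0.15 in stromal-like cells and COL9A2 at 0.0586 in granulosa-like cells, in 6 of 6 ewes each the highest type. COL9A1, COL19A1 and COL22A1 did not exceed 0.00224 in any type.

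Type VI collagen forms beaded filaments close to the cell surface from the chains COL6A1, COL6A2 and COL6A3. COL6A1 in stromal-like cells had 8.77, 14.9, 18.2, 23.1, 16.8 and 12.7 (15.7 ± 4.89), and theca-like cells held 7.84 ± 2.17. COL6A2 had 5.18, 5.91, 8.49, 9.44, 8.47 and 5.35 in stromal-like cells (7.14 ± 1.87), with 2.24 ± 0.63 in theca-like cells. COL6A3 had 2.83, 4.23, 5.65, 6.18, 6.18 and 6.57 (5.27 ± 1.45). It was at only 0.223 ± 0.137 in theca-like cells.

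The theca-like cells thus held COL6A1 and COL6A2 with little of the third chain. The ratio of COL6A3 to COL6A2 was 0.107 ± 0.0615 in theca-like cells, with a range of 0.0307 to 0.17 over the 6 ewes, and 0.757 ± 0.24 in stromal-like cells, with a range of 0.546 to 1.23. These ranges did not overlap. In immune-like cells the ratio was 0.852 ± 0.284. Perivascular-like cells had 0.538 ± 0.283, with a range of 0.165 to 0.861 that overlapped the theca-like one. Their vascular smooth muscle-like cluster, described below, had 0.295 ± 0.254. The ratio of COL6A1 to COL6A2 was 3.52 ± 0.29 in theca-like and 2.19 ± 0.315 in stromal-like cells, again without overlap (3.12 to 3.89 and 1.69 to 2.52). Of the rarer members, COL6A5 was at 0.102 in stromal-like cells, COL6A6 at 0.0773 in theca-like cells, and COL28A1, a relative of the type VI chains, at 0.0589 in stromal-like cells.

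The main type IV chains, COL4A1 and COL4A2, were highest in perivascular-like cells in 6 of 6 ewes each. Endothelial-like cells came second by the mean, although in LLS 2 the theca-like cells stood above them. COL4A1 in perivascular-like cells had 25.5, 52.8, 27.8, 75.6, 32.2 and 48.7 (43.8 ± 19.2). In endothelial-like cells COL4A1 had 10.6, 45.1, 21.7, 64.7, 20.1 and 17 (29.9 ± 20.7). It was the most abundant collagen there, with 57.1% of the collagen UMI, and COL4A2 added 22.1%. LLS 1 and HLS 2, 1 ewe of each group, stood above the other 4 in both types.

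COL4A2 had 10.1, 22, 10.1, 29.3, 13 and 16.8 in perivascular-like (16.9 ± 7.59) and 4.97, 17.2, 8.31, 23.4, 7.67 and 6.1 in endothelial-like cells (11.3 ± 7.36). The pair kept a narrow ratio, COL4A2 being 0.386 ± 0.0267 of COL4A1 in perivascular-like, 0.39 ± 0.0409 in endothelial-like, 0.321 ± 0.0313 in stromal-like and 0.274 ± 0.0343 in theca-like cells. In theca-like cells COL4A1 had 6.04, 10.6, 12.4, 15.3, 25.3 and 13.5 (13.8 ± 6.44), close to the level of COL1A1. Granulosa-like cells held 2.62 ± 0.953 of COL4A1, their most abundant collagen, against 0.925 ± 0.48 in immune-like cells. Thinned to 2000 UMI, 30.9% of granulosa-like and 14.8% of immune-like cells had a COL4A1 UMI (67.5% and 27.2% unthinned).

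The other type IV chains had other maxima. COL4A4 was the collagen among the 28 at 0.1 or more for which theca-like cells were highest, in 4 of 6 ewes, with 1.38, 1.8, 1.81, 1.44, 1.69 and 1.49 (1.6 ± 0.187) and little spread between ewes. Granulosa-like cells had 0.543, 1.91, 1.74, 1.13, 1.08 and 1.42 (1.31 ± 0.497), so these neighbours in the order differed by less than the SD of the latter. COL4A4 was their second most abundant collagen, with 11.9% of the collagen UMI. Its level was 0.0589 in perivascular-like, 0.0586 in endothelial-like and 0.0362 in immune-like cells. The shares of cells with a COL4A4 UMI after thinning were 26.1% in theca-like, 21.7% in granulosa-like, 13.2% in stromal-like cells and 0.735% in the immune-like ones (80.3%, 56.1%, 28.7% and 1.44% unthinned).

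COL4A3, which forms a trimer with COL4A4 and COL4A5 in specialised basement membranes, was the chain among the 28 at 0.1 or more for which granulosa-like cells were highest, at 0.342 and in 4 of 6 ewes. The COL4A4 to COL4A3 ratio was 4.11 ± 1.05 in granulosa-like and 8.95 ± 2.69 in theca-like cells. COL4A5 in perivascular-like cells had 0.796, 1.14, 1.59, 0.618, 1.53 and 1.07 (1.12 ± 0.387), and stromal-like cells held 1.01 ± 0.394, which was within that spread. COL4A6 was at 0.586 in stromal-like cells and at 0.529 in the perivascular-like ones.

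The multiplexins, basement membrane collagens with interrupted helices, divided between the vascular types. COL18A1, the source of endostatin, had 7.94, 8.27, 5.07, 12.7, 7.14 and 9.27 in perivascular-like cells (8.4 ± 2.53), 7.88 times the endothelial mean. COL15A1 was highest in endothelial-like cells with 0.421, 6.09, 0.814, 8.87, 1.45 and 1.03 (3.11 ± 3.51). HLS 2 and LLS 1 again lay far above the other ewes, and COL15A1 was highest in endothelial-like cells in 5 of 6 ewes. HLS 3 was the exception, with 0.814 in endothelial-like and 0.926 in perivascular-like cells.

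Of the remaining families, the transmembrane chain COL13A1 was highest in endothelial-like cells (0.249) in 6 of 6 ewes. The short-chain COL8A1 was at 0.221 in perivascular-like, 0.165 in endothelial-like and 0.16 in granulosa-like cells, and the type with the highest level changed from ewe to ewe. COL7A1, the anchoring fibril chain, was at 0.104 in stromal-like cells. The transmembrane COL23A1 (0.0293, endothelial-like), COL25A1 (0.00542, granulosa-like) and COL17A1 (0.00263, endothelial-like) were low, as were COL8A2 (0.0254, perivascular-like), COL26A1 (0.0125, endothelial-like) and COL10A1 (0.00111, theca-like).

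Clusters within the types divided the collagens further. Stromal-like cells formed 3 clusters, named from markers as LHX9 and PENK stromal-like (4247 cells), Hedgehog-responsive stromal-like (2343 cells, with PTCH1) and PI16 and DPT stromal-like (1502 cells). The first name rests on LHX9, PENK, TCF21 and WT1, none among its 10 leading genes, which included ACTA2, ACTG2, MYLK and TPM2. TCF21 was a leading gene of the Hedgehog-responsive cluster. The PI16 and DPT markers summed to 18.7 in endothelial-like and 9.02 in stromal-like cells. The summed collagen level was 392 ± 173 in the PI16 and DPT, 225 ± 87.5 in the LHX9 and PENK and 200 ± 52.2 in the Hedgehog-responsive cluster. COL1A2 was 2.41 times higher in the PI16 and DPT than in the LHX9 and PENK cluster (101 and 41.7), COL3A1 2.03 times (77.3 and 38.1) and COL6A3 2.22 times (10.4 and 4.68), each in 6 of 6 ewes. COL1A1 was 1.58 times higher there (129 and 81.4), but in only 4 of 6 ewes.

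Some rarer chains differed between the stromal clusters by larger ratios. COL28A1 was at 0.315 in the PI16 and DPT, 0.0185 in the LHX9 and PENK and 0.00905 in the Hedgehog-responsive cluster. COL11A1 had the reverse order, with 1.26 in the Hedgehog-responsive, 0.548 in the LHX9 and PENK and 0.0445 in the PI16 and DPT cluster, and it was among the 10 leading genes of the first. COL7A1 (0.206), COL21A1 (0.171) and COL6A5 (0.151) were also highest in the Hedgehog-responsive cluster, as were COL4A1 (12.2) and COL4A4 (1.56). COL8A1 was at 0.286 in the PI16 and DPT, 0.18 in the LHX9 and PENK and 0.00966 in the Hedgehog-responsive cluster. COL4A5 and COL4A6 were highest in the PI16 and DPT cluster (2.33 and 1.2), in 6 of 6 ewes against either other cluster. COL12A1 was highest in the LHX9 and PENK cluster at 7.07.

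**Figure D3:**
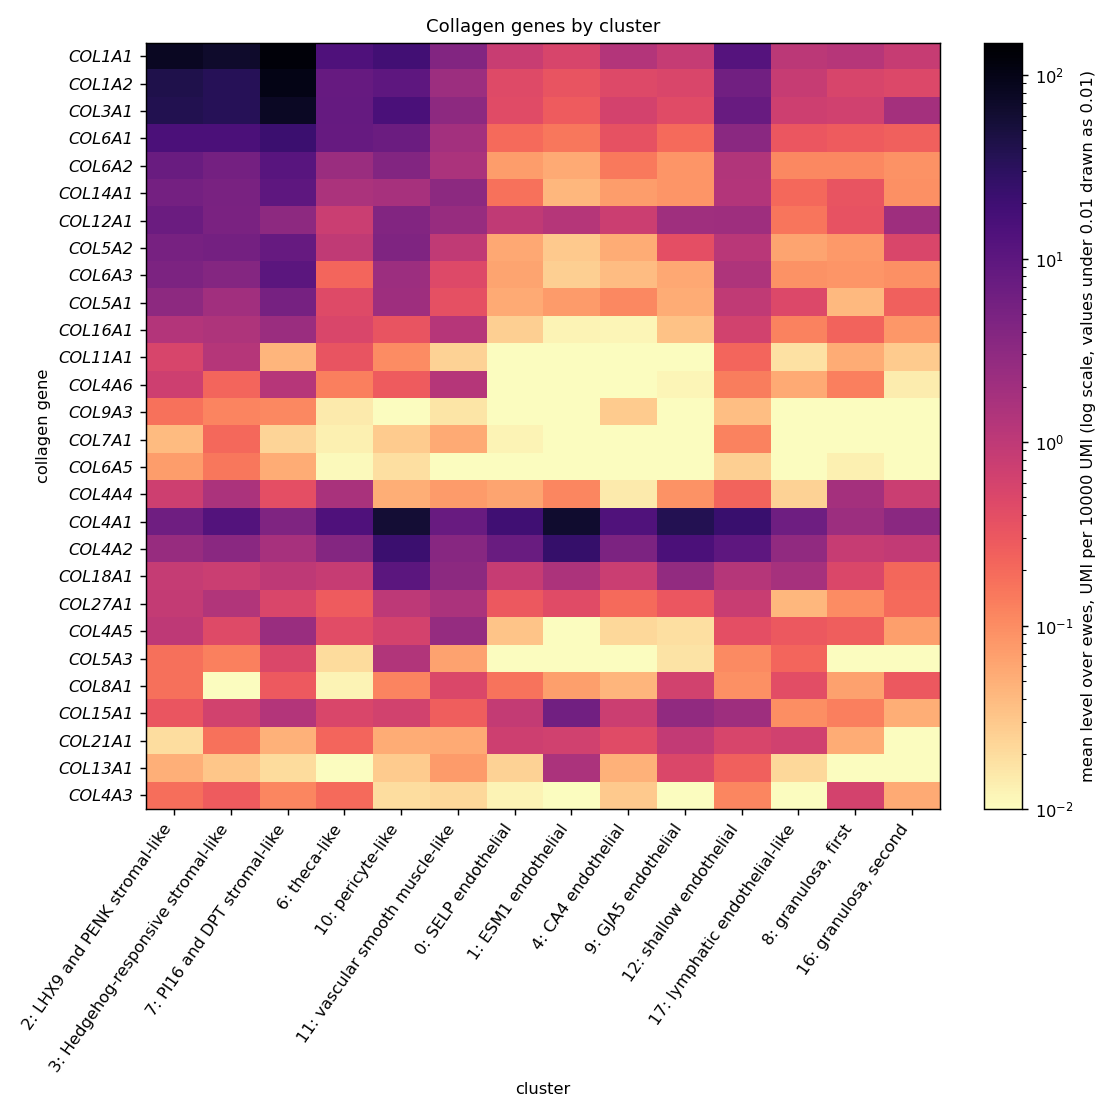
Mean level over ewes (colour, log scale, UMI per 10000 UMI) of the same 28 collagen genes in the 14 clusters of the 5 types. COL4A1 is highest in the ESM1 endothelial cluster (65) and the pericyte-like cluster (56.7), and COL28A1 is not drawn because no type reached 0.1.

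Perivascular-like cells divided into a pericyte-like cluster (1372 cells) and a vascular smooth muscle-like cluster (1190 cells). COL4A1 was 7.44 times higher in the pericyte-like cluster (56.7 and 7.62), with 31.5, 69.8, 54.5, 87.9, 38.7 and 57.6 against 4.92, 8.92, 5.66, 9.77, 8.91 and 7.52. COL18A1 was at 10.3 and 3.23, and COL5A3 at 1.33 and 0.0634, a ratio of 21. COL1A1 was at 19 and 3.99. All of these were higher in pericyte-like cells in 6 of 6 ewes. The vascular smooth muscle-like cluster was instead higher in COL4A5 (2.51 against 0.618), COL4A6 (1.25 against 0.28), COL16A1 (1.18 against 0.332) and COL14A1 (3.22 against 1.66), also in 6 of 6 ewes. Summed levels were 162 ± 44.3 and 42.3 ± 6.17. HLS 3 had 81.3% of its perivascular-like cells in the smooth muscle-like cluster, the other ewes 28.7% to 52.8%.

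Endothelial-like cells formed 6 clusters that were spread unevenly over the ewes. They are named here by a leading gene as the SELP (6111 cells), ESM1 (4255), CA4 (1880) and GJA5 (1431) clusters, the shallow cluster (1046 cells, median of 1383 UMI) and the lymphatic endothelial-like cluster (782 cells). The ESM1 cluster held 55.5% of the endothelial-like cells of HLS 2 and 66.9% of those of LLS 1, and 0.952% to 2.28% of those of the other 4 ewes. The CA4 cluster held 71.8% of those of HLS 1 and at most 2.88% in the others.

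COL4A1 was at 65 ± 14.9 in the ESM1, 36.6 ± 20.2 in the GJA5, 22.3 ± 13.7 in the shallow, 19.6 ± 5.07 in the SELP, 13.2 ± 2.71 in the CA4 (n = 4 ewes) and 6.53 ± 2.3 in the lymphatic endothelial-like cluster. In the ESM1 cluster the ewes had 48.3, 55.3, 89, 73.6, 68.1 and 55.9, on 23, 1814, 17, 2312, 37 and 52 cells. HLS 2 and LLS 1 were not the highest ewes there, but the values of the other 4 rest on few cells. In the SELP cluster COL4A1 had 14.2, 19.4, 20.2, 28.3, 20.6 and 15. COL15A1, itself among the 10 leading genes of the ESM1 cluster although it was kept out of the clustering, was at 6.11 there and at 0.891 in the SELP cluster. Within the ESM1 cluster COL15A1 was highest in LLS 1 and HLS 2, the ewes having 3.89, 8.42, 3.39, 11, 5.52 and 4.46. COL13A1 was at 1.59 in the ESM1 and 0.515 in the GJA5 cluster, and at 0.0483 or less in the SELP, CA4 and lymphatic endothelial-like clusters. COL8A1 was highest in the GJA5 cluster (0.639), and COL23A1 in the lymphatic endothelial-like cluster (0.209). The shallow cluster also carried stromal chains, COL1A1 at 11.9 and COL3A1 at 7.45, and without it the summed collagen level of the endothelial-like cells was 50.

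**Figure D4:**
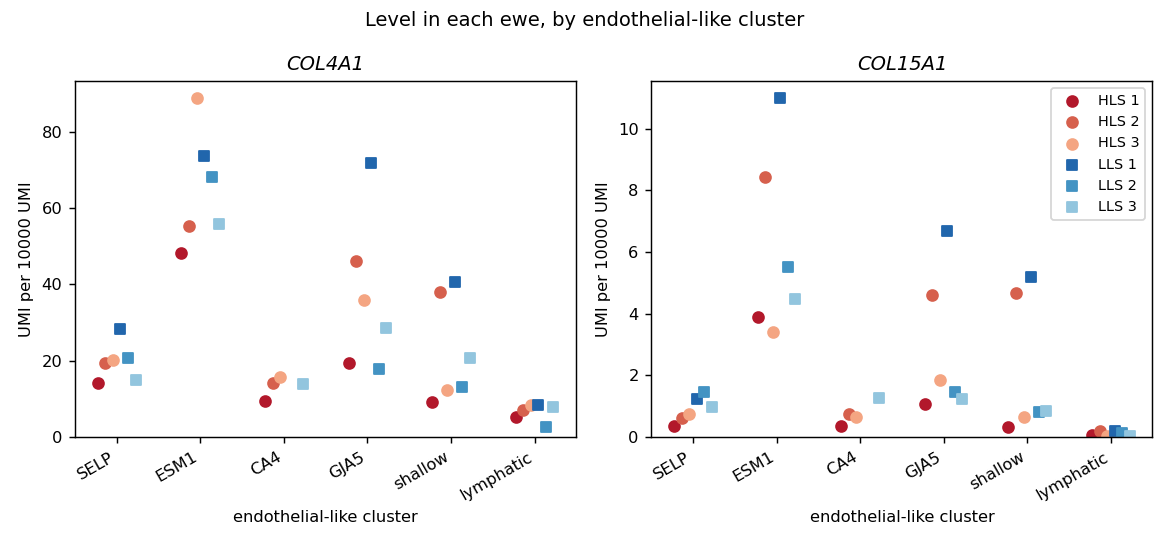
Level of COL4A1 and COL15A1 in UMI per 10000 UMI in each ewe, by endothelial-like cluster; clusters with fewer than 10 cells in an ewe have no point. COL4A1 lies between 48.3 and 89 in the ESM1 cluster and between 14.2 and 28.3 in the SELP cluster.

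Granulosa-like cells formed a cluster led by IL17RB and NMB (1483 cells, drawn as the first in the plot by cluster) and a cluster led by GCG and XIRP1 (794 cells). COL4A3 was 11 times higher in the former (0.618 and 0.056) and COL4A4 2.31 times (1.79 and 0.774), both in 6 of 6 ewes. In the IL17RB cluster COL4A3 had 0.523, 0.578, 0.739, 0.479, 0.981 and 0.408. COL12A1 was 6.08 times higher in the GCG cluster (2.08 and 0.343) and COL5A2 6.82 times (0.527 and 0.0772), in 6 of 6 ewes each. HLS 1 had 77.5% of its granulosa-like cells in the GCG cluster, and the other ewes had 16.3% to 48.6%.

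All 43 symbols were found in the RefSeq table of assembly ARS-UI_Ramb_v3.0, in which 14 members lie in 7 pairs of neighbouring protein-coding genes. 5 of these pairs had both members at 0.1 or more. Over the 14 clusters, log2(level + 0.01) of the neighbours had a Pearson correlation of 0.992 for COL6A1 and COL6A2, 0.988 for COL4A1 and COL4A2, 0.974 for COL4A5 and COL4A6, 0.949 for COL5A2 and COL3A1 and 0.865 for COL4A4 and COL4A3. The median over the 378 pairs of the 28 genes was 0.477. Clusters share libraries and depth and are not independent, so these correlations are descriptive.

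The second question was whether collagen genes differ between HLS and LLS ewes. UMI were summed per ewe and type and tested with edgeR's quasi-likelihood test, with Benjamini-Hochberg adjustment over all genes tested in the type. In such sums, fewer cells that carry a transcript and less of it per cell cannot be told apart. No collagen gene, and no gene of any kind, passed an adjusted p of 0.05 in any of the 5 types (0% of genes in each), and the members below are therefore given by value. DESeq2 called 1, 1, 2, 4 and 2 genes in stromal-like, theca-like, perivascular-like, endothelial-like and granulosa-like cells, and 1 of these was a collagen, COL15A1 in theca-like cells. At an unadjusted p under 0.05, edgeR had 671, 414, 340, 194 and 600 genes in the same order. Non-overlap of the groups, given below, was judged on counts scaled by TMM (the trimmed mean of M-values).

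In stromal-like cells 32 collagens were tested, and 26 had a lower fitted level in HLS. Their median log2 fold change was -0.43, while the median of all 13748 genes was -0.01 and 51.1% of them were lower. COL1A1 had a log2 fold change of -0.46 ± 0.352 (SE, adjusted p = 0.823), COL1A2 of -0.53 ± 0.341 (adjusted p = 0.819) and COL3A1 of -0.52 ± 0.325 (adjusted p = 0.819). Without HLS 1 the median over collagens was -0.22, and without LLS 1 it was -0.26. The median deviation of the collagens from their mean over ewes (log2 scale) was -0.58, 0.02 and 0.08 in HLS. In LLS it was 0.46, 0.11 and -0.04, with a pooled SD within groups of 0.315. HLS 1 and LLS 1 thus lay apart, and the other ewes of both groups lay close together. Collagens share the ewes and can move together, so such counts, here and below, are not counts of independent genes. 2 of 32 collagens had an unadjusted p under 0.05, against 671 of all genes (4.88%). The groups did not overlap for 2 collagens that were lower in HLS and for none that were higher, against 5.35% and 5.78% of all genes.

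COL6A3 was one of the former, its values of 2.83, 4.23 and 5.65 in HLS lying below 6.18, 6.18 and 6.57 in LLS (log2 fold change -0.51 ± 0.213, unadjusted p = 0.0411 and adjusted p = 0.819 by edgeR). COL4A1 was the other, with 3.98, 7.87 and 9.89 in HLS and 11.4, 10 and 10.1 in LLS. Within the LHX9 and PENK, Hedgehog-responsive and PI16 and DPT clusters the groups overlapped for both chains. The log2 fold changes there were -0.67, -0.22 and -0.27 for COL6A3 and -0.74, -0.27 and -0.57 for COL4A1. The part of the cluster shares in these differences was not tested. COL7A1 had 0.0515, 0.15 and 0.226 in HLS and 0.0474, 0.049 and 0.099 in LLS, which overlapped (1.15 ± 0.463, unadjusted p = 0.0359 by edgeR). The next was COL4A5 (-0.61 ± 0.275, edgeR unadjusted p = 0.0546). None of these differences passed the adjusted threshold. The 10 perivascular markers, none at 0, summed to 19.6, 26.7 and 22.5 in the stromal-like cells of HLS and to 43, 14.3 and 18 in those of LLS. The vascular smooth muscle markers summed to 30.8, 42 and 34.9 and to 66.9, 18.9 and 28 there. The pericyte markers summed to only 0.636, 0.429 and 0.292 and to 0.425, 1 and 0.461. ACTA2, a smooth muscle marker, was among the 10 leading genes of the LHX9 and PENK stromal-like cluster itself. The 10 endothelial markers, none at 0, summed to 1.84, 2.2 and 1.52 in the stromal-like cells of HLS. In those of LLS they summed to 2.79, 2.95 and 1.52. The part of perivascular and endothelial RNA in the values of COL4A1 was not tested.

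In theca-like cells 22 of 24 tested collagens had a lower fitted level in HLS, with a median log2 fold change of -0.33 (0.00 and 50% lower for all genes). Without LLS 2 the collagen median was -0.21. 4 had an unadjusted p under 0.05, against 3.41% of all genes. 5 collagens were lower in HLS without overlap and 1 was higher, against 4.56% and 5.12% of all genes. COL15A1 had 0.128, 0.285 and 0.2 in HLS and 1.3, 0.896 and 0.342 in LLS, a log2 fold change of -1.86 ± 0.441 (edgeR unadjusted p = 0.00167, adjusted p = 0.959). DESeq2 gave -1.89 for COL15A1 with an adjusted p of 0.0304, and edgeR with no filter on low counts -1.83 with an adjusted p of 0.00143. Over all edgeR alternatives with the filter, the adjusted p of COL15A1 lay between 0.455 and 1.

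By the mean COL15A1 was highest in endothelial-like cells (3.11, against 0.578 in stromal-like and 0.524 in theca-like cells). That mean rests mainly on HLS 2 and LLS 1. Endothelial markers were also present in the theca-like cells. The 10 endothelial markers summed to 1.67, 1.62 and 1.07 in the theca-like cells of HLS and to 4.31, 1.4 and 1.82 in those of LLS, and none of the 10 was at 0. LLS 1, which had the highest COL15A1 and the highest marker sum, contributed 64 theca-like cells. Without LLS 1 the log2 fold change of COL15A1 was -1.38 (edgeR unadjusted p = 0.00801). The part of endothelial RNA in this difference was not tested.

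The basement membrane pair came next in theca-like cells. COL4A2 had 1.72, 2.93 and 2.85 in HLS and 4.74, 7.72 and 3.16 in LLS (log2 fold change -0.90 ± 0.316, edgeR unadjusted p = 0.0164). COL4A1 had 6.04, 10.6 and 12.4 in HLS and 15.3, 25.3 and 13.5 in LLS, with no overlap (-0.76 ± 0.299, edgeR unadjusted p = 0.0284). COL5A1 had 0.267, 0.362 and 0.423 in HLS and 0.508, 0.631 and 0.534 in LLS (-0.51 ± 0.193, edgeR unadjusted p = 0.0239). Each had an adjusted p of 0.959. LLS 2, the highest ewe for these chains, also had the highest sum of the 10 perivascular markers in its theca-like cells (5.75, against 2.14 to 2.88 in the others) and of the 8 stromal markers (41.1, against 18.4 to 27.1), none at 0. In the theca-like cells of LLS 2 the vascular smooth muscle markers summed to 6.92 and the pericyte markers to only 0.0996. The part of these markers' cells in the differences was not tested. The remaining chains without overlap were COL24A1 and COL4A6, lower in HLS, and COL4A4, higher in HLS after the libraries were scaled by TMM (0.27 ± 0.183, edgeR unadjusted p = 0.165).

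**Figure D5:**
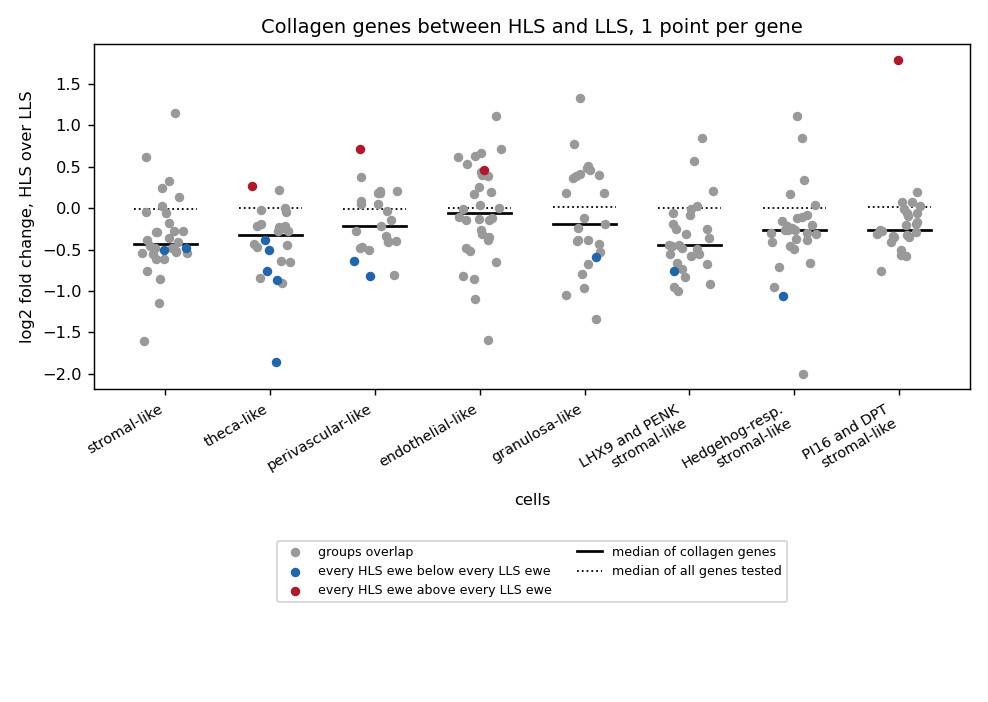
Log2 fold change of HLS over LLS (edgeR) for each collagen gene tested, in the 5 types and the 3 stromal-like clusters; blue points have every HLS ewe below every LLS ewe and red points the reverse, solid lines are medians of the collagens and dotted lines medians of all genes. The collagen median is lowest in the LHX9 and PENK cluster (-0.45) and nearest to 0 in endothelial-like cells (-0.06).

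In perivascular-like cells 14 of 23 tested collagens were lower in HLS, with a median log2 fold change of -0.21 against -0.01 for all genes, of which 50.7% were lower. The collagen median was -0.12 without HLS 2 and -0.13 without LLS 1. 3 had an unadjusted p under 0.05 (3.14% of all genes), 2 were lower without overlap (4.41% of all genes) and 1 was higher (4.37%). COL12A1 had 1.88, 2.69 and 2.79 in HLS and 3.95, 4.59 and 5.14 in LLS (-0.82 ± 0.206, edgeR unadjusted p = 0.00291). COL5A3 had 0.433, 1.03 and 0.764 against 1.34, 1.1 and 1.2 (-0.64 ± 0.25, edgeR unadjusted p = 0.0292). COL16A1 had the opposite direction, with 0.57, 0.685 and 0.663 in HLS and 0.262, 0.536 and 0.463 in LLS (0.72 ± 0.269, edgeR unadjusted p = 0.0239). The adjusted p was 0.989 for each. Within the pericyte-like cluster COL5A3 had 0.515, 1.42 and 1.64 in HLS and 1.59, 1.39 and 1.45 in LLS, which overlapped. COL16A1 was higher in the vascular smooth muscle-like than in the pericyte-like cluster, as given above. The former held 34.7%, 52.8% and 81.3% of the perivascular-like cells in HLS and 42.3%, 28.7% and 36.2% in LLS. The part of these shares in the differences of COL16A1 and COL12A1 was not tested.

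In endothelial-like cells 18 of 32 collagens were lower in HLS, with a median log2 fold change of -0.06 (0.00 and 49.7% lower for all genes). The direction of this median turned without HLS 2 (0.33) or LLS 2 (0.48), with called doublets kept (0.03) and with a replicate block (0.13). 1 had an unadjusted p under 0.05, against 1.28% of all genes. COL27A1 was the only member whose groups did not overlap, with 0.321, 0.296 and 0.369 in HLS and 0.263, 0.282 and 0.222 in LLS (0.46 ± 0.19, edgeR unadjusted p = 0.0455, adjusted p = 1). Of all genes 2.01% were higher and 2.93% lower in HLS without overlap. COL8A1 (-1.10 ± 0.484, edgeR unadjusted p = 0.0556) and COL24A1 (-1.59 ± 0.757, edgeR unadjusted p = 0.0705) came next. For COL4A1 the log2 fold change was -0.39 ± 0.647 and for COL15A1 -0.65 ± 1.11. HLS 2 and LLS 1, the ewes with most ESM1 cells, lay in opposite groups, and the part of the uneven clusters in these errors was not tested.

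In granulosa-like cells 14 of 25 collagens were lower in HLS, with a median log2 fold change of -0.19 (0.01 and 48.4% lower for all genes). It was -0.03 without HLS 1, -0.01 without HLS 2, -0.07 without LLS 1 and 0.10 without LLS 3. 2 had an unadjusted p under 0.05, against 5.15% of all genes. COL4A1 was the only member without overlap, with 1.57, 2.1 and 2.12 in HLS and 4.29, 2.97 and 2.68 in LLS (-0.59 ± 0.217, edgeR unadjusted p = 0.0241, adjusted p = 0.94). Of all genes 5.13% were lower and 6.13% higher without overlap. COL24A1 (-1.33 ± 0.574, edgeR unadjusted p = 0.0458) and COL9A2 (1.34 ± 0.645, edgeR unadjusted p = 0.0688) followed, on 83 and 176 UMI in all. In these cells the 8 stromal markers summed to 8.12, 3.86 and 4.26 in HLS and 6.65, 9.46 and 9.12 in LLS. The 6 theca markers summed to 2.25, 0.916 and 0.889 in HLS and 3.72, 2.91 and 2.22 in LLS. For the 10 perivascular markers the sums were 1.93, 3.81 and 4.97 in HLS and 4.04, 3.08 and 4.24 in LLS. The 10 endothelial markers had 0.857 to 0.967 in HLS and 0.923 to 1.3 in LLS. None of these markers was at 0, and their part was not tested. COL4A4, the chain second to COL4A1 there, had 0.543, 1.91 and 1.74 in HLS and 1.13, 1.08 and 1.42 in LLS (0.36 ± 0.372, edgeR adjusted p = 0.943). In the IL17RB cluster COL4A4 had 1.4, 2.17 and 1.99 in HLS and 1.31, 1.99 and 1.87 in LLS.

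The shares of the stromal-like clusters differed between ewes, the PI16 and DPT cluster making up 46.1% of the stromal-like cells of LLS 2 and 11.1% to 16.6% of those of the others, so each was tested alone. In the LHX9 and PENK cluster 24 of 28 collagens were lower in HLS (median log2 fold change -0.45), in the Hedgehog-responsive cluster 23 of 28 (-0.27) and in the PI16 and DPT cluster 20 of 25 (-0.26), where 50%, 50% and 48.7% of all genes were lower. Without LLS 1 these medians were -0.15, -0.09 and 0.03, and without HLS 1 they were -0.23, -0.07 and -0.06. No collagen passed the adjusted threshold by edgeR. 1 gene of 12141 did in the LHX9 and PENK cluster (0.00824%), LOC101122940, named because it was the single call, and 0% did in the others. The count was 0 when any ewe other than LLS 3 was left out. 1, 4 and 1 collagens had an unadjusted p under 0.05, against 5.42%, 4.92% and 3.04% of all genes.

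COL28A1 in the PI16 and DPT cluster had the smallest p of these. Its level was 0.24, 0.615 and 0.565 in HLS and 0.268, 0.1 and 0.0991 in LLS, on 245 UMI in all, with a log2 fold change of 1.80 ± 0.419 (edgeR unadjusted p = 0.00098, adjusted p = 0.993). On this scale the groups overlapped, since LLS 1 lay above HLS 1, whereas after TMM scaling every HLS ewe lay above every LLS ewe, as for 3.96% of all genes in that cluster. In the Hedgehog-responsive cluster COL24A1 (-1.06 ± 0.379), COL6A6 (-2.00 ± 0.724) and COL4A6 (-0.71 ± 0.279) were lower in HLS. Their edgeR unadjusted p was 0.0174, 0.0183 and 0.0272. COL7A1 was higher in HLS there (1.11 ± 0.428, edgeR unadjusted p = 0.0250), and all of these had an adjusted p of 0.895. In the LHX9 and PENK cluster COL4A4 was lower (-0.91 ± 0.411, edgeR unadjusted p = 0.0480, adjusted p = 0.877).

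Genes that make, cross-link and bind collagen were read from 3 lists. PPIB, SERPINH1, P4HB and MIA3, which fold, modify and export collagen chains, were the most abundant of the processing list. SERPINH1, the collagen-specific chaperone, was at 14 ± 2.1 in stromal-like, 11.9 ± 1.69 in theca-like, 10.7 ± 2.05 in granulosa-like, 10.2 ± 2.46 in perivascular-like cells and 5.61 ± 2.06 in the endothelial-like ones, and at 0.753 in immune-like cells. Its range over the types was thus narrower than that of the collagens. PPIB was at 8.13 to 15.5 over the 5 types, P4HB at 1.52 to 4.07 and MIA3 at 1.75 to 3.01.

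Of the cross-linking and fibril partners the most abundant were SPARC, LUM, BGN and ASPN, all matrix proteins that bind collagen. SPARC was at 24.6 ± 8.84 in stromal-like cells and at 19.4 ± 4.61 in the perivascular-like ones. LUM was at 12.3 ± 4.36 in stromal-like cells and BGN at 5.23 ± 2.41 in perivascular-like cells, the highest type of each. LUM was itself among the markers from which the stromal-like cells were named. ASPN was at 3.35 in stromal-like and 2.55 in granulosa-like cells.

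The receptors with the highest levels were ITGB1, ITGA1, DDR2 and ADGRG1. ITGA1, which pairs with ITGB1 into a collagen-binding integrin, was at 6.7 ± 2.54 in perivascular-like cells and at 2.18 ± 0.636 in the endothelial-like ones, the types richest in COL4A1, and at 0.516 in stromal-like cells. ITGB1 was highest in perivascular-like cells (14.2 ± 3.16). DDR2 was at 1 ± 0.275 in perivascular-like cells, and ADGRG1 at 0.846 in endothelial-like and 0.646 in theca-like cells.

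None of the list genes passed an adjusted p of 0.05 between HLS and LLS in any of the 5 types by edgeR. In stromal-like cells 15 of 15 tested cross-linking and fibril partners had a lower fitted level in HLS (median log2 fold change -0.65), where 51.1% of all genes were lower. 3 of the 15 had an unadjusted p under 0.05, against 4.88% of all genes. These were BGN (-0.70 ± 0.252, edgeR unadjusted p = 0.0229) and, named after their values were seen, FN1 (-1.26 ± 0.308, edgeR unadjusted p = 0.00307) and THBS2 (-1.12 ± 0.291, edgeR unadjusted p = 0.00446), each with an adjusted p of 0.819. In the same cells 18 of 25 processing genes (median -0.13) and 9 of 10 receptors (-0.28) were lower, with 0 at an unadjusted p under 0.05. Within the LHX9 and PENK, Hedgehog-responsive and PI16 and DPT clusters, 13 of 14, 10 of 12 and 12 of 14 partners were lower. Their medians were -0.50, -0.29 and -0.39. No ewe was left out for the list medians. The 8 stromal markers, LUM among them, summed to 58.1, 88.3 and 87.7 in stromal-like cells of HLS. Those of LLS had 100, 120 and 81.2, and the part of this was not tested. In perivascular-like cells the partners were lower for 11 of 14 genes (median -0.43), where 50.7% of all genes were lower. 2 of the 14 had an unadjusted p under 0.05, against 3.14% of all genes. Of the receptors there, ITGA1 had -0.73 ± 0.289 (edgeR unadjusted p = 0.0305). There the medians of the processing genes and receptors were -0.08 and 0.02. In theca-like, endothelial-like and granulosa-like cells the median of the partners was -0.26, -0.01 and -0.36. For the processing list it was 0.02, -0.02 and -0.20, and for the receptors -0.09, -0.16 and -0.14.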

How the data were processed

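The deposited files hold raw counts of UMI per gene and barcode, which per the labels and the study's methods the authors made with Cell Ranger and STAR from 10x Chromium 3′ v3 libraries. The genome build is not given in the sources used here, so no coordinates or sequences are printed. Of 52290 barcodes, 38464 passed limits after the study's methods (at least 200 genes, 1000 UMI, a log10 gene to log10 UMI ratio of 0.7, at most 10% mitochondrial and 5% haemoglobin UMI). Doublets were scored per library against simulated doublets, and 2007 (5.22%) were removed, leaving 36457.

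Cells were clustered on 2000 variable genes without collagens (30 principal components, 20 neighbours, Leiden resolution 0.8) with scikit-learn 1.9.0, igraph 0.11.9 and leidenalg 0.10.2 in Python 3.11.15. Clusters with a cycling score of at least 1.5 were first set apart as cycling, 1 of them (287 cells) with a higher granulosa score of 2.93. Any other cluster took a type's name where the marker score was at least 0.5 and led the next by 0.5. Shallow clusters also needed a marker of the type among their 10 leading genes. The rest stayed unnamed, among them a cluster of 804 cells with scores of 1.686 for granulosa and 1.403 for theca. These naming limits were chosen after the clusters were seen, and the names are rebuilt rather than the authors' own.

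Counts were summed per ewe and type (at least 10 cells, 20 for a cluster tested), filtered with filterByExpr and tested with edgeR 4.0.16 (TMM, quasi-likelihood) in R 4.3.3, over HLS and LLS without covariates. DESeq2 1.42.0 was an alternative. On simulated counts with 200 changed genes, 86% of 4-fold and 22% of 2-fold changes were recovered in stromal-like cells and 47% and 10% in endothelial-like cells. Genes that had not been changed were also called, 13 in stromal-like and 7 in endothelial-like cells. With 3 ewes a group, precision is set by the ewes. The labels name no batch, and intervals beyond the SD and SE were not computed.

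Collagens at 1 UMI per 10000 or more in a type were named with a value in every ewe, and between the groups up to 3 per type with the smallest unadjusted p, besides the 4 most abundant genes of each companion list. Further members without overlap between the groups, the cluster comparisons and the neighbour pairs were chosen after their values were seen. The members and lists were chosen with earlier results of these data known. Symbols matched the RefSeq table for 43 of 43 genes. The alternatives tried were no TMM, DESeq2, no filter on low counts, a replicate block, each ewe left out, doublets kept, collagens kept in clustering, other resolutions, centring per ewe, a mitochondrial limit of 20% and, chosen after seeing the data, leaving out the shallow endothelial cluster.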

Additional observations from a re-analysis of the deposited data

Results flagged for a closer look

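Schwann-like cells, the glia of peripheral nerves, were 129 cells that enter no comparison above. Collagens below 1 UMI per 10000 UMI there were not screened, and 2 of the others stood above their level in each of the 5 types in the Schwann-like cells. COL5A3 was at 3.52 UMI per 10000 UMI in them, with 2.13, 4.44 and 3.65 in HLS and 2.41, 4.2 and 4.29 in LLS on 165 UMI in all, against 0.979 in perivascular-like cells, the highest of the 5 types. COL16A1 was at 2.02, with 1.59, 2.11 and 0.456 in HLS and 3.22, 2.71 and 2.05 in LLS on 107 UMI, against 1.53 in stromal-like cells. The SD over ewes was 1.01 for COL5A3 and 0.954 for COL16A1, so the latter difference was smaller than the spread. Each ewe gave 10 to 39 Schwann-like cells, and none of these differences was tested.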

How the results depend on the processing

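The order of the 5 types by summed collagen level was compared only between alternative clusterings. These were doublets kept, collagens kept in clustering, other resolutions, centring per ewe and a mitochondrial limit of 20%. The order held except at a clustering resolution of 0.4, where theca-like cells (128) stood above perivascular-like cells. The theca-like sum was 113 with expression centred per ewe, the perivascular-like sum 86.2 as a mean over cells, and the granulosa-like sum 14.9 with called doublets kept and 18.9 with a mitochondrial limit of 20%. Of the 28 members, 24 to 28 kept their highest type under the alternative clusterings. DESeq2 called 1, 1, 2, 4 and 2 genes in stromal-like, theca-like, perivascular-like, endothelial-like and granulosa-like cells. With no filter on low counts, edgeR called 28, 13 and 2 genes in theca-like, perivascular-like and granulosa-like cells. In both alternatives 1 theca-like call was a collagen, COL15A1. Leaving out 1 ewe at a time gave 0 to 2 genes in stromal-like cells, 0 to 1 in theca-like, in perivascular-like and in LHX9 and PENK stromal-like cells, and 0 to 3 in Hedgehog-responsive stromal-like cells, where LLS 1 was the ewe left out for the 3. The collagen median turned positive with no filter (0.13) and with doublets kept (0.09) in granulosa-like cells and with doublets kept in endothelial-like cells (0.03). Its range over left-out ewes was -0.13 to 0.48 in endothelial-like, -0.45 to 0.10 in granulosa-like and -0.46 to 0.03 in PI16 and DPT stromal-like cells. The cause of these changes was not tested. Without TMM factors the median of all genes was -0.16 in theca-like and -0.17 in granulosa-like cells. The single members followed were the 3 with the smallest edgeR unadjusted p in each type or stromal-like cluster. All 257 other values of these kept their direction and side of the threshold. They were picked for their small p, so this does not extend to the other members. In endothelial-like cells 14 collagens were higher and 18 lower in HLS, but 20 and 13 without LLS 2. In the PI16 and DPT cluster 5 were higher and 20 lower, but 16 and 10 without LLS 1.

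With the replicate number as a block, the collagen median was 0.13 in endothelial-like cells and the single call in LHX9 and PENK stromal-like cells was lost (0 genes), and no other call changed. Deviations of same-numbered ewes had correlations of -0.357 to 0.0444 for numbers 1 and 2 and of 0.102 to 0.283 for number 3. Each deviation was taken from a mean of 3 ewes, so these correlations cannot decide whether the numbers pair the ewes. With 3 ewes a group, the 2-fold changes simulated were mostly missed in each type.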

Other observations

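The summed collagen level of the Schwann-like cells was 114 ± 25.1 (SD, n = 6 ewes), between that of the perivascular-like and the theca-like cells. COL3A1 was their most abundant chain, with 26.4% of the collagen UMI, before COL1A1 with 14.8% and COL4A1 with 13.1%. COL18A1 was at 5.98 ± 1.82 there, second to the perivascular-like cells.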
